A study of Mus musculus with 6 samples.

Results

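The genes described here carry the signals by which stromal cells of bone steer the precursors of osteoclasts, the cells that resorb bone. They are the 10 genes Tnfsf11, Tnfrsf11a, Tnfrsf11b, Csf1, Il34, Csf1r, Efnb2, Ephb4, Wnt5a and Il6, picked by name from a table of 54532 mouse genes. RNA had been sequenced from MSCs (mesenchymal stromal cells, a cultured population from which bone-forming cells arise) of alveolar bone, the part of the jaw that holds the teeth. The 6 libraries fall into 3 of WT (wild-type) mice and 3 of Ccrl2-KO mice (KO), which lack an atypical receptor for the chemoattractant chemerin. By the study's description all cultures were under TNFα-induced inflammation and osteogenic induction, yet the count columns bear the tag Ctrl, which no source used here explains. Strain, age, and the number of mice behind each culture are not given in the labels used here either. The replicates are described as biological. If they did not come from separate mice, p-values here reflect only how cultures vary.

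RANKL, the protein of Tnfsf11, binds its receptor RANK on osteoclast precursors and drives them to become osteoclasts. Osteoprotegerin, the protein of Tnfrsf11b, is a secreted decoy that captures RANKL. M-CSF, encoded by Csf1, and interleukin-34 both act through the receptor CSF1R, which macrophages and osteoclast precursors need to survive and multiply. Osteoblast-lineage cells are a known source of RANKL, osteoprotegerin and M-CSF, while the receptors RANK and CSF1R mark the responding myeloid cells.

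Libraries held between 16114974 and 18616433 counts. The targeted gene Ccrl2 was counted 4, 3 and 0 times in the WT libraries (replicates 1 to 3) and 0 times in all KO libraries, so it gives little check of the genotype labels. All 13 mesenchymal stromal markers looked at (Col1a1, Prrx1 and Pdgfrb among them) had enough counts to be tested, with a list median of 0.08. Of them 1, Thy1, was called lower in KO (-0.81 ± 0.10, adjusted p = 0.00141), against 2.31% of all tested genes. Pdgfra, a receptor of platelet-derived growth factors, did not pass (-0.44 ± 0.11, adjusted p = 0.0799). The summed level of the 13 was 60788 to 71055 CPM in WT and 67540, 43541 and 59990 in KO replicates 1 to 3. Most of that sum was Col1a1 (mean 38545 CPM in WT and 31273 in KO) and Col1a2 (21673 and 18377), and neither gene was called. Transcripts of macrophages were present too, and endothelial transcripts were sparse. KO replicate 2 was set off from the rest on the first principal component (66.6, against 3.40 and 7.80 in the other KO libraries and -31.2 to -15.9 in WT). The number of genes detected was 16428 there and between 18928 and 19372 elsewhere. Results are therefore also given without it where that changes them.

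To show the regions from which transcription of these signals starts, 3 of them are printed here from RefSeq (build GRCm38.p6), 5′ to 3′ on the gene's strand, from 250 bases before to 50 bases after the start. Tnfsf11 and Il6 were the ligand genes with the lowest levels in these cultures and Csf1 the one with the highest. Capitals mark matches, on either strand, to an NF-kB motif (GGGACTT or GGGATTT), an AP-1 motif (TGAGTCA), the TATA box (TATAA) or a RUNX motif (TGTGGT).
Tnfsf11, chr14:78307994-78308293, minus strand: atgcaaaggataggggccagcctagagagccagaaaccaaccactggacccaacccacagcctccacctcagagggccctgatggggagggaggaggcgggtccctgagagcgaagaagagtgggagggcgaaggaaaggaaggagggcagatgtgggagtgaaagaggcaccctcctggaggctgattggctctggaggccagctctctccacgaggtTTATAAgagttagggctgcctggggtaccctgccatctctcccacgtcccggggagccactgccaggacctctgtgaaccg
Csf1, chr3:107760420-107760719, minus strand: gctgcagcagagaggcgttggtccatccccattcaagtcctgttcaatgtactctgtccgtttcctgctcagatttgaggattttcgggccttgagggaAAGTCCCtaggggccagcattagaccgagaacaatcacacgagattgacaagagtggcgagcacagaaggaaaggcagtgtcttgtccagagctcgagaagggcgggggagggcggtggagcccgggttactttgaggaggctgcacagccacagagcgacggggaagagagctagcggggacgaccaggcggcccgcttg
Il6, chr5:30012864-30013163, plus strand: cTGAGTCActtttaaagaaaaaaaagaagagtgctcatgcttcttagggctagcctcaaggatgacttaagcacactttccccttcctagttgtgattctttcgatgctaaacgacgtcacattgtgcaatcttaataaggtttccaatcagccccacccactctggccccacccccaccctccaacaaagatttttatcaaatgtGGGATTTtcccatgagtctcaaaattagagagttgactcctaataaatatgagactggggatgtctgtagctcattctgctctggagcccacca
The table of start regions held 6 of the 10 genes, the others with an entry being Tnfrsf11a, Ephb4 and Efnb2. The NF-kB letters occurred in Csf1 (in reverse, beginning at position -151 from the start) and in Il6 (forward, at position -44), and in 9.44% of all 32851 regions of the table. The AP-1 letters occurred in Il6, at position -249, and in 5.20% of all regions. The TATA letters occurred in Tnfsf11, where a forward match at position -30 overlaps a reverse one at position -31, in Efnb2, and in 24.9% of all regions. The RUNX letters occurred in none of the 6 and in 16.8% of all regions. Such matches describe letters and are no evidence that a factor was bound there.

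Csf1 was by far the most abundant of these transcripts, and Tnfsf11, Tnfrsf11a and Il6 were the least, with at most 83 counts in any library. Levels of different genes are compared as CPM (counts per 1000000 of the library total) per kb of the gene length in the deposited table. On that scale Csf1 stood at 236 ± 21.1 (SD over the 6 libraries), rank 149 among the 13705 genes with enough counts to be tested. Tnfrsf11b followed at 38.5 ± 11.6, rank 1129, and Ephb4 at 10.4 ± 1.45. The ranges of these 3 genes over the 6 libraries did not overlap each other or that of the next gene. Wnt5a (7.49), Il34 (6.84) and Efnb2 (6.68) formed a middle group of means whose ranges overlapped. Csf1r stood at 2.36 ± 1.48 CPM per kb and was above Tnfsf11 (0.458) in all 6 libraries, although the ranges overlapped. Tnfrsf11a (0.339) and Il6 (0.265) came last, with ranges that overlapped each other and that of Tnfsf11.

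**Figure D1:**
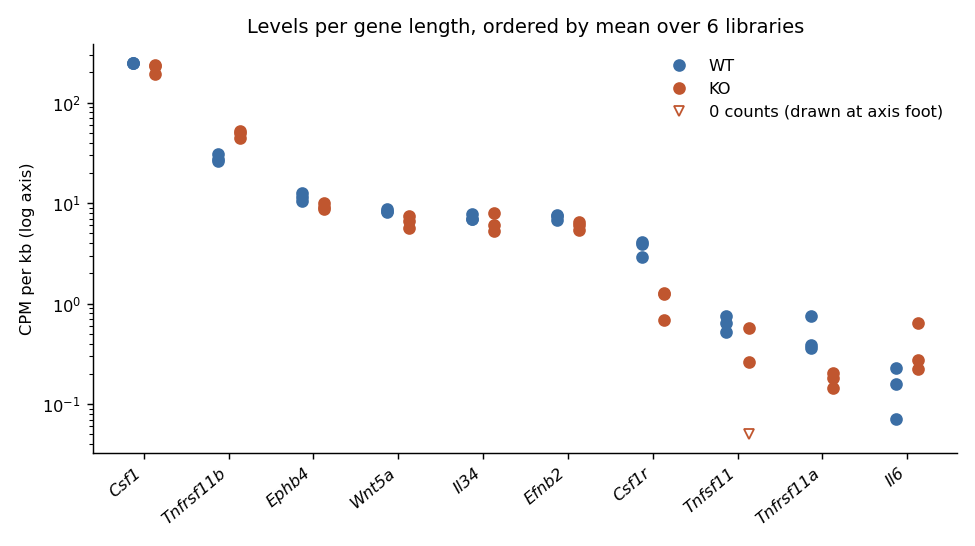
Level of each gene in each library, as CPM per kb on a log axis, with genes ordered by their mean over the 6 libraries. Blue points are WT and red points KO libraries, and the open triangle is the 0 count of Tnfsf11 in KO replicate 2. Csf1 lies near 236 and Il6 near 0.265.

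Setting KO against WT asks whether these signals differ between the genotypes. The decoy gene Tnfrsf11b rose and the receptor gene Csf1r fell, while the other members did not pass the test. All counts were fitted together (edgeR's quasi-likelihood test, adjusted by Benjamini-Hochberg over 13705 genes, threshold 0.05), and 9 of the 10 genes had enough counts to enter it. Of these 9, 1 was called higher and 1 lower, against a background of 0.365% of all tested genes called higher and 2.31% called lower (2.67% in either direction). The log2 fold change was negative in 8 of the 9, with a median of -0.33 against 0.02 over all tested genes. In CPM the WT and KO libraries did not overlap in 7 of the 9, against 20.9% of all tested genes. The members were chosen with earlier results of these data known, so these counts are descriptive.

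**Figure D2:**
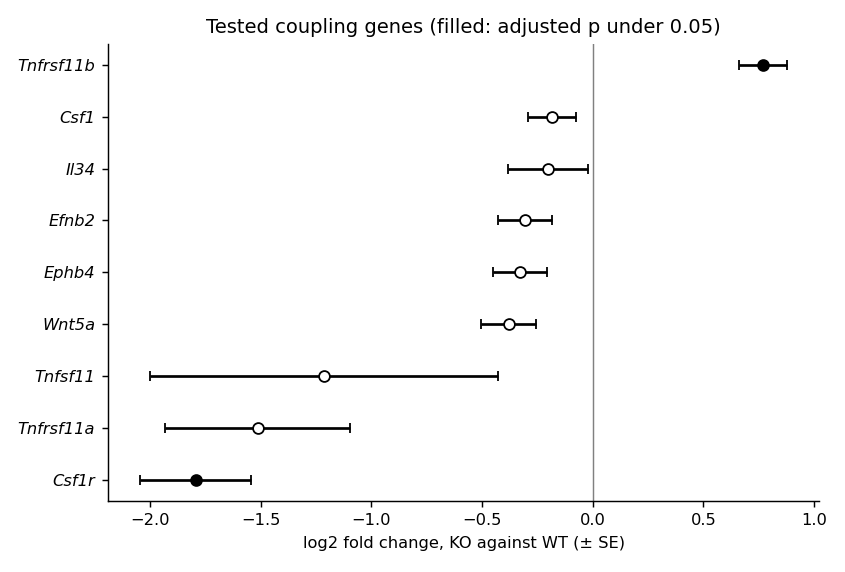
Log2 fold change of KO against WT with its SE for the 9 tested genes, 3 libraries per group. Filled points passed the test: Tnfrsf11b on the right at 0.77 and Csf1r at the far left at -1.79.

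Tnfrsf11b (ENSMUSG00000063727, chromosome 15, 54250619 to 54278484, minus strand, GRCm38) encodes osteoprotegerin. It had 1330, 1200 and 1593 counts in WT replicates 1 to 3 and 2078, 2287 and 2719 in KO replicates 1 to 3. In CPM these were 77.0, 74.5 and 87.3 in WT and 126, 141 and 146 in KO. Every KO library lay above every WT library. The mean was 79.6 ± 6.80 CPM in WT and 138 ± 10.6 in KO (SD, n = 3 per group, as for all group means here). The gene rose 1.70-fold, a log2 value of 0.77 ± 0.11 (SE) with adjusted p = 0.00342. It was called with each library left out in turn, with values between 0.72 and 0.83 and an adjusted p of at most 0.0436. Some osteoblast-lineage markers were higher in KO too: of 9 looked at, 4 could be tested. Of these, 3 (Sp7, Ibsp and Alpl) were called higher, against 0.365% of all tested genes. The fourth tested marker, Runx2, which makes up most of their sum, stood at 55.0 CPM in WT and 54.0 in KO (-0.05 ± 0.13, adjusted p = 0.880). The summed level of the 9 was 58.0 to 70.6 CPM in WT and 77.1 to 86.1 CPM in KO. Sost, which marks osteocytes, had 0 counts in all libraries, and Bglap, the osteocalcin gene, 0 to 3. The part of these cells in the Tnfrsf11b result was not tested.

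Tnfsf11 (ENSMUSG00000022015, chromosome 14, 78277445 to 78308043, minus strand) encodes RANKL. It had 20, 23 and 31 counts in WT and 21, 0 and 11 in KO replicates 1 to 3. In CPM these were 1.16, 1.43 and 1.70 in WT and 1.27, 0 and 0.591 in KO. KO replicate 1 lay within the WT range, the other KO libraries lay below it, and the 0 in replicate 2 allows up to 0.185 CPM (3 counts, counting error only). Summed over libraries, 74 counts in WT (95% exact Poisson interval 58.1 to 92.9) stood against 32 in KO (21.9 to 45.2), and these intervals cover counting error only. The log2 fold change of -1.21 ± 0.79 did not pass the test (adjusted p = 0.487). Its size depended on single KO libraries, at -0.65 ± 0.52 without KO replicate 2 and -2.23 ± 0.93 without KO replicate 1. It depended on the method as well, at -2.28 with limma-voom (adjusted p = 0.333) and -1.55 with the replicate number as a block (adjusted p = 0.490), and neither passed.

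The balance of ligand to decoy is often summarised as the RANKL to osteoprotegerin ratio. Per kb, the WT libraries held 19.0, 24.2 and 24.5 Tnfsf11 counts for every 1000 of Tnfrsf11b, and the KO libraries held 12.7, 0 and 5.10. The 0 in KO replicate 2 allows up to 1.65. All KO libraries lay below all WT libraries, and the decoy outnumbered the ligand in each of them. Over summed counts the ratio was 22.6 per 1000 in WT and 5.69 in KO, which is 3.97-fold lower in KO. It was 2.69-fold lower without KO replicate 2 and 8.17-fold lower without KO replicate 1. The log ratio is undefined at the 0 count. On the unlogged ratio, a test added after the data were seen, KO minus WT was -16.6 per 1000 over all 6 libraries (exact permutation test, two-sided, p = 0.1), and 3 libraries against 3 allow no smaller p. Without KO replicate 2 the mean log2 ratio differed by -1.47 (exact permutation test, two-sided, p = 0.2), which is the smallest p that 3 libraries against 2 allow.

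**Figure D3:**
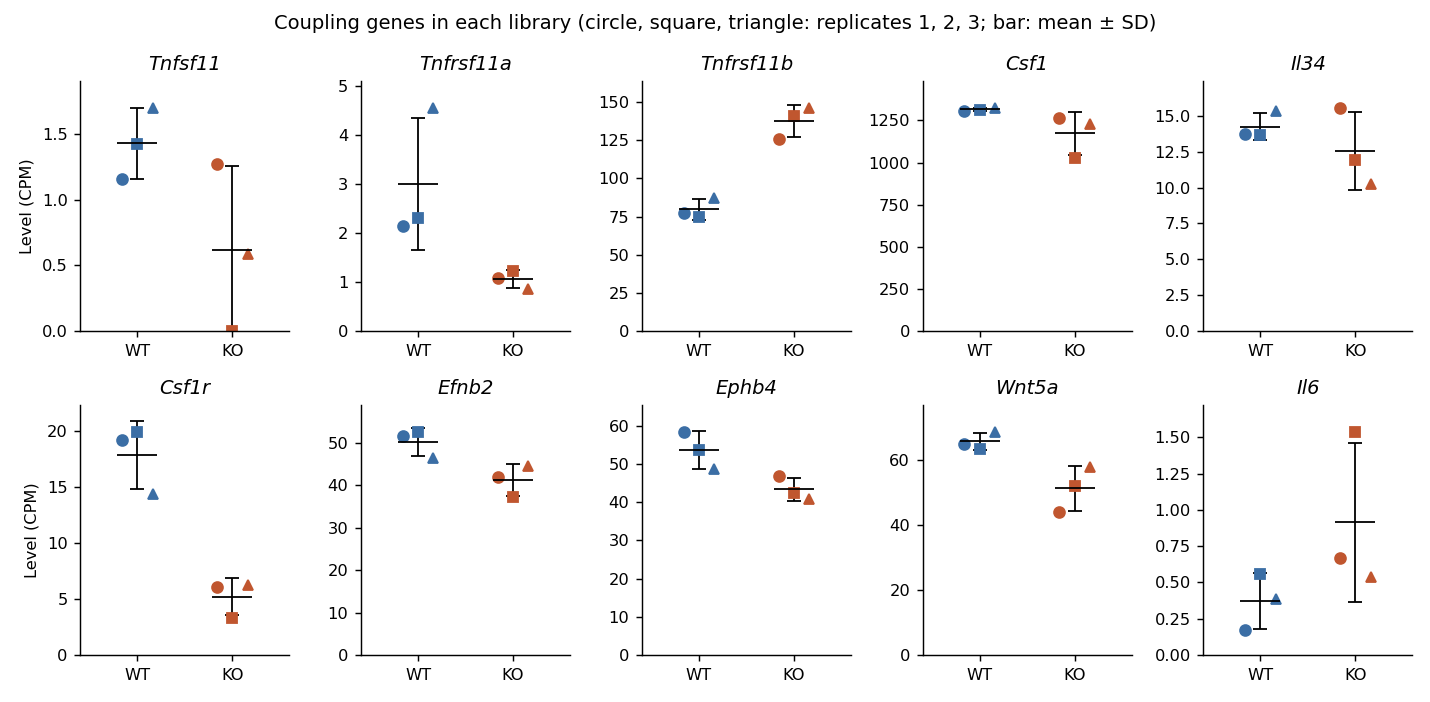
CPM of each gene in each library, WT in blue and KO in red, with marker shapes for replicates 1, 2 and 3 and bars for the mean and SD of 3 libraries. All KO points lie above all WT points for Tnfrsf11b and below them for Csf1r, Tnfrsf11a, Csf1, Efnb2, Ephb4 and Wnt5a. The groups overlap for Tnfsf11, Il34 and Il6.

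Tnfrsf11a (ENSMUSG00000026321, chromosome 1, 105780718 to 105847981, plus strand) encodes RANK. It had 37, 37 and 83 counts in WT and 18, 20 and 16 in KO. In CPM these were 2.14, 2.30 and 4.55 in WT and 1.09, 1.23 and 0.859 in KO. The groups did not overlap, and WT replicate 3 had the highest value. The log2 fold change was -1.51 ± 0.42 and did not pass (adjusted p = 0.103). It passed without KO replicate 2 (-1.64 ± 0.44, adjusted p = 0.0368) and with DESeq2 (adjusted p = 0.0293), and was nearest to 0 without WT replicate 3 (-1.10 ± 0.45, adjusted p = 0.317).

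Csf1r (ENSMUSG00000024621, chromosome 18, 61105572 to 61132149 in the deposited table, plus strand) encodes the receptor shared by M-CSF and interleukin-34. It had 331, 321 and 262 counts in WT and 100, 54 and 116 in KO. In CPM these were 19.2, 19.9 and 14.4 in WT and 6.05, 3.33 and 6.23 in KO. The groups stood well apart, with KO replicate 2 lowest. The mean was 17.8 ± 3.02 CPM in WT and 5.20 ± 1.63 in KO. The gene fell by 1.79 on the log2 scale (-1.79 ± 0.25, SE, 3.47-fold lower in KO, adjusted p = 0.00321) and was called with each library left out, with values between -1.94 and -1.56. Hmgxb3 overlaps Csf1r on the opposite strand, and no label states a strand-specific kit, so that reads of the pair may be mixed. Hmgxb3 had 459 to 789 counts per library and was not called (-0.19 ± 0.16, adjusted p = 0.580).

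Macrophage markers were lower in KO too. Of 19 markers looked at, 16 could be tested, all with negative values, and 13 were called lower, against 2.31% of all tested genes. The median log2 fold change of the 16 was -2.10. The summed level of the 19 markers was 375 to 438 CPM in WT and 99.5 to 110 CPM in KO. Within the groups Csf1r did not follow this sum. It was lowest in WT replicate 3 and KO replicate 2, the libraries with the highest sum in their group (438 and 110 CPM). Lyz2 (lysozyme), Mrc1 (a mannose receptor) and C1qb (a complement subunit) were the most abundant of the markers. No marker was at 0 in all libraries, although Aif1 had at most 1 count and Cx3cr1 at most 6. Lyz2 was the largest part of that sum, at a mean of 172 CPM in WT and 48.6 in KO, so shares of the sum lean on this gene. For every 100 summed macrophage marker counts there were 5.11, 4.82 and 3.28 Csf1r counts in WT and 5.78, 3.02 and 6.26 in KO. These shares overlapped between the groups, with a mean difference of 0.14 on the log2 scale (exact permutation test, two-sided, p = 0.6, and 0.9 adjusted over 4 such ratios). For every 100 Csf1r counts there were 11.2, 11.5 and 31.7 Tnfrsf11a counts in WT and 18.0, 37.0 and 13.8 in KO, which overlapped as well (mean log2 difference 0.39, p = 0.5 in the same exact permutation test, 0.9 adjusted). With 3 libraries against 3 the smallest p of such a test is 0.1, and a p above the threshold does not show that the shares are alike. Fewer macrophages and less RNA per macrophage cannot be told apart in these bulk libraries. Lymphocyte markers were near 0, with at most 1.93 CPM summed over 9 genes, 5 of which had 0 counts in all libraries. The part of macrophages in the Csf1r and Tnfrsf11a values was not tested beyond these shares.

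**Figure D4:**
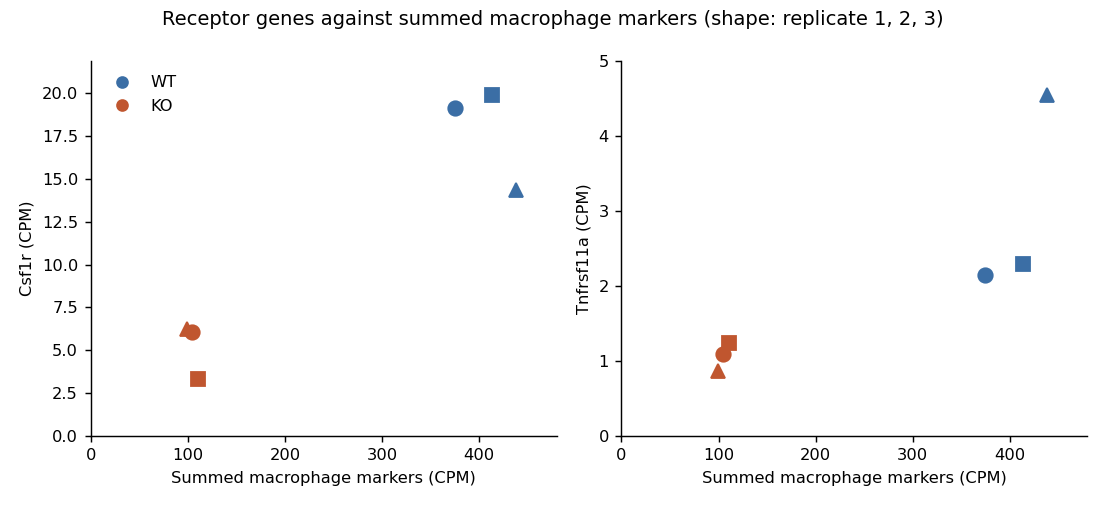
CPM of Csf1r and Tnfrsf11a against the summed CPM of 19 macrophage markers, 1 point per library (circle, square and triangle for replicates 1, 2 and 3; WT in blue, KO in red). The KO libraries lie at 99.5 to 110 on the horizontal axis and the WT libraries at 375 to 438, and both receptor genes are lower in the KO libraries.

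Neither ligand of CSF1R passed the test. Csf1 (ENSMUSG00000014599, chromosome 3, 107741048 to 107760469, minus strand) had 22560, 21168 and 24168 counts in WT and 20866, 16699 and 22924 in KO. In CPM these were 1306, 1314 and 1325 in WT and 1262, 1029 and 1231 in KO. The KO libraries lay just below WT, KO replicate 2 most of all, and the log2 fold change of -0.19 ± 0.11 did not pass (adjusted p = 0.454). Without KO replicate 2 it was -0.10 (adjusted p = 0.750). Il34 (ENSMUSG00000031750, chromosome 8, 110741829 to 110805924, minus strand) had 237, 220 and 280 counts in WT and 257, 193 and 191 in KO. Its groups overlapped, at 13.7 to 15.3 CPM in WT and 10.3 to 15.5 in KO (-0.20 ± 0.18, adjusted p = 0.616). Per kb, Csf1 exceeded Il34 by a factor of 35.3, 35.7 and 32.0 in WT and 30.1, 32.1 and 44.5 in KO. That factor overlapped between the groups, with a mean log2 difference of 0.03 (exact permutation test, two-sided, p = 0.9, and 0.9 adjusted over the 4 ratios).

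Efnb2 and Ephb4 encode ephrin-B2 and its receptor EphB4, a membrane-bound pair through which osteoclasts and osteoblasts signal to each other. Efnb2 (ENSMUSG00000001300, chromosome 8, 8617434 to 8661242, minus strand) had 891, 849 and 848 counts in WT and 695, 604 and 830 in KO. Ephb4 (ENSMUSG00000029710, chromosome 5, 137350109 to 137378669, plus strand) had 1011, 864 and 887 counts in WT and 774, 687 and 762 in KO. In CPM the KO libraries lay below the WT libraries for both genes, though by little. The mean of Efnb2 was 50.3 ± 3.31 CPM in WT and 41.3 ± 3.74 in KO, and its log2 fold change of -0.31 ± 0.12 did not pass (adjusted p = 0.278). The mean of Ephb4 was 53.6 ± 4.96 CPM in WT and 43.4 ± 3.07 in KO (-0.33 ± 0.12, adjusted p = 0.252). The Efnb2 to Ephb4 ratio per kb overlapped between the groups, at 0.597, 0.665 and 0.647 in WT and 0.608, 0.595 and 0.737 in KO (mean log2 difference 0.02, exact permutation test, two-sided, p = 0.9, and 0.9 adjusted). Both genes are also expressed by vessels. Of 11 endothelial markers 3 could be tested, and Flt1, a VEGF receptor, was called lower, against 2.31% of all tested genes. Their summed level was 40.2 to 50.02 CPM in WT and 22.4 to 26.5 CPM in KO, most of it Flt1. The defining markers Pecam1 and Cdh5 had at most 7 and 6 counts per library. The part of such cells in the Efnb2 and Ephb4 values was not tested.

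Wnt5a and Il6 are secreted signals that act on precursors or on RANKL itself. Wnt5a, a non-canonical Wnt that raises RANK in osteoclast precursors through the receptor Ror2 in mice, lies on chromosome 14 (ENSMUSG00000021994, 28504750 to 28527448, plus strand). It had 1124, 1025 and 1257 counts in WT and 728, 846 and 1077 in KO. The levels were 65.1, 63.6 and 68.9 CPM in WT and 44.0, 52.1 and 57.9 in KO, so that the groups did not overlap and KO replicate 1 was lowest. The log2 fold change of -0.38 ± 0.12 did not pass (adjusted p = 0.180). Il6, an inflammatory cytokine that can induce RANKL in stromal cells, lies on chromosome 5 (ENSMUSG00000025746, 30013114 to 30019981, plus strand). It had 3, 9 and 7 counts in WT and 11, 25 and 10 in KO and was too low for the test. In CPM these were 0.174, 0.559 and 0.384 in WT and 0.665, 1.54 and 0.537 in KO, so that KO replicate 2 was highest and the groups overlapped. Without the filter on low counts its log2 fold change was 1.27 ± 0.80 (adjusted p = 0.532).

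Around these members, 5 lists of pathway genes held 100 genes, of which 78 could be tested. Of the 78, 9 were called lower and 0 higher (11.5%, against 2.31% of all tested genes called lower). Some were called higher under 4 of the alternatives: 2 of 17 called without the filter on low counts, 2 of 16 with DESeq2, 1 of 10 with library totals alone, and 3 of 16 without KO replicate 2. Without any other single library 3 to 5 were called, all of them lower. The lists were chosen with earlier results of these data known, so these counts describe them and do not test for an excess.

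Of 20 genes of RANK signalling and of osteoclasts, 15 could be tested and 1 was called lower, against 2.31% of all tested genes. The list median of log2 fold change was -0.13, against 0.02 over all tested genes. The called gene was Fos, an AP-1 subunit that osteoclast formation requires in mice, which fell from 38.6 to 22.8 CPM (-0.78 ± 0.12, adjusted p = 0.00654). Leaving out WT replicate 2 or KO replicate 3 ended the call (adjusted p up to 0.0648). Fos is also an immediate early gene of many cell types. The other members spanned a wide range of levels. Ctsk, cathepsin K, had 2627 to 3867 counts per library (0.33 ± 0.10, adjusted p = 0.141). Clcn7 and Tcirg1, a chloride-proton exchanger and a proton pump subunit of osteoclasts and other cells, had 879 to 1260 and 472 to 834. Itgb3, an integrin subunit, had 142 to 170. Others were near the floor: Dcstamp and Calcr had 0 counts in all libraries, Ocstamp at most 6 and Atp6v0d2 at most 9. Mmp9 had 6 to 16. Acp5, tartrate-resistant acid phosphatase, had 48 to 106 counts per library.

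Among 26 other signals by which stromal cells act on osteoclasts, 16 could be tested. Of these 16, 2 were called lower, against 2.31% of all tested genes. The list median was -0.11, against 0.02 over all tested genes. Sfrp1, a secreted Wnt antagonist that can also bind RANKL, fell from 135 ± 14.9 to 37.8 ± 4.52 CPM (-1.86 ± 0.13, adjusted p = 0.000107) and was called with each library left out. Slit3, a guidance factor, fell from 462 to 282 CPM (-0.74 ± 0.17, adjusted p = 0.0468). The call ended when WT replicate 1, WT replicate 2, KO replicate 1 or KO replicate 3 was left out (adjusted p up to 0.251), and with upper-quartile scaling, limma-voom or no robust moderation. The RANKL inducer gene Il1b and Tnfsf10, whose protein TRAIL osteoprotegerin also binds, had 0 counts in all libraries, and Tnf had 1 to 4 counts in WT and 0 in KO.

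Of 16 receptors and factors upstream of RANKL, all could be tested and 2 were called lower, against 2.31% of all tested genes. The list median was -0.25, against 0.02 over all tested genes. Il1r1, the signalling receptor for interleukin-1, fell from 36.1 to 23.4 CPM (-0.65 ± 0.12, adjusted p = 0.0195) and Lifr, the receptor for leukaemia inhibitory factor, from 8.75 to 4.84 (-0.87 ± 0.19, adjusted p = 0.0404). Il1r1 did not hold when any of the 3 WT libraries or KO replicate 3 was left out (adjusted p up to 0.142). Lifr held only when the library left out was KO replicate 2 (adjusted p up to 0.225 for the others), and was lost with the replicate number as a block.

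Of 20 other ephrins and Eph receptors, 14 could be tested and 2 were called lower, against 2.31% of all tested genes. The list median was -0.37, against 0.02 over all tested genes. Epha1, an A-class Eph receptor, fell from 14.2 to 3.50 CPM (-2.04 ± 0.19, adjusted p = 0.000333) and was called with each library left out. Efna5, an A-class ephrin, fell from 18.2 to 9.52 CPM (-0.95 ± 0.20, adjusted p = 0.0292) and likewise held only when KO replicate 2 was the one left out (adjusted p up to 0.163 for the others). Of 18 non-canonical Wnt ligands and receptors, 17 could be tested and 2 were called lower, against 2.31% of all tested genes. The list median was -0.09, against 0.02 over all tested genes. Ror1, a receptor for Wnt5a, fell from 36.0 to 14.7 CPM (-1.31 ± 0.17, adjusted p = 0.00194) and was called with each library left out, whereas its relative Ror2 stood at 42.5 and 43.5 CPM (0.01 ± 0.18, adjusted p = 0.988). Fzd4, a Frizzled receptor, fell from 14.8 to 4.37 CPM (-1.78 ± 0.33, adjusted p = 0.0165). It did not hold when any WT library or KO replicate 1 was left out (adjusted p up to 0.0969).

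**Figure D5:**
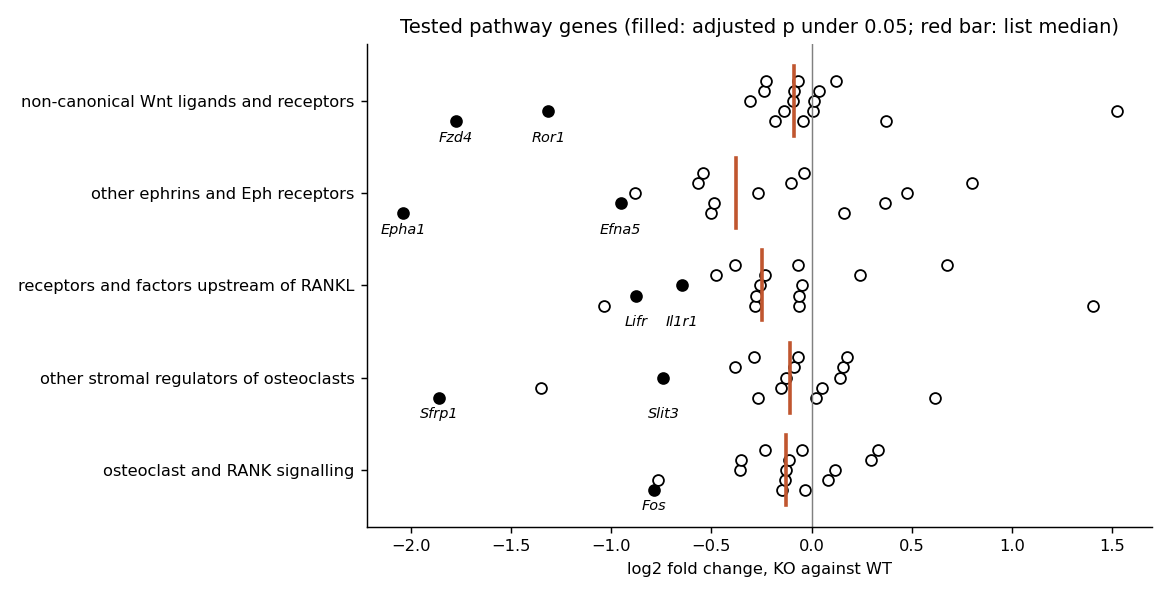
Log2 fold change of KO against WT for each tested gene of 5 pathway lists, 1 row per list, with filled points for adjusted p under 0.05 and a red bar at the list's median. The 9 filled points all lie to the left of 0, between -2.04 for Epha1 and -0.65 for Il1r1, and the medians lie between -0.37 and -0.09.

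For the members that passed the test, the genes of most similar profile over the 6 libraries were sought by Pearson correlation of log2 CPM. For Tnfrsf11b they were Mest (r = 0.996), an imprinted gene, Mcm6 (r = 0.994), a replication helicase subunit, and Ncbp3 (r = 0.994), a cap-binding protein. For Csf1r they were Trib2 (r = 0.998), a pseudokinase, Lamb1 (r = 0.997), a laminin chain, and Rassf2 (r = 0.996). Of these, Mest (0.80, adjusted p = 0.00222) and Lamb1 (-0.51, adjusted p = 0.0473) were themselves called. With only 6 points such values are common: 102 genes exceeded 0.95 for Tnfrsf11b and 329 for Csf1r.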

How the data were processed

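The authors deposited 1 table of whole-number counts per gene, not normalized, with a gene length and GRCm38 coordinates (the start and end of 98.3% of identifiers found in GENCODE M21 were the same, while the submitters' processing notes name mm9). The notes name HISAT2, StringTie and SAMtools, without versions or roles, and no source used here gives the counter. The library kit was NEBNext Ultra RNA, per the labels' protocols. Each count column was matched to 1 sample by genotype and replicate number in its title.

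Levels (CPM) are counts per 1000000 of the library total. The test was edgeR 4.0.16's quasi-likelihood test (R 4.3.3) with genotype alone in the design, robust moderation and TMM scaling (factors 0.982 to 1.01). Genes were kept by filterByExpr (minimum count 10, total 15). The SE was taken as the log2 fold change, unsigned, over the root of the F statistic. Benjamini-Hochberg adjustment covered all 13705 tested genes. The test was tried on simulated counts. No library repeated another (chi-square per gene of 4.54 or more between libraries of a group). Replicate numbers were not taken to pair the libraries.

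The members and lists were chosen with earlier results of these data known. All members were named, with up to 5 called genes per pathway list by smallest p and the 3 genes nearest in profile to each called member, predicted genes aside. The plan allowed at most 3 abundant genes per marker list. Further marker and pathway genes are named outside these rules. Alternatives were other scalings and filters, DESeq2 1.42.0, limma-voom (limma 3.58.1), a blocking term for the replicate number, moderation that was not robust, and each library left out.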

Additional observations from a re-analysis of the deposited data

How the results depend on the processing

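Tnfrsf11b and Csf1r were called, in the same direction, in all 15 alternatives, with log2 fold changes of 0.72 to 0.83 and -1.94 to -1.56. Csf1, Il34, Efnb2, Ephb4 and Wnt5a were called in none of the 15 and kept their sign, and so did Tnfsf11 in the 14 that gave a value. Tnfrsf11a passed without the filter on low counts (-1.51, adjusted p = 0.0212), with DESeq2 (-1.52) and without KO replicate 2 (-1.64), and with single libraries left out its value ranged from -1.71 to -1.10. The stricter filter removed Tnfsf11 and Tnfrsf11a. Over all genes 366 were called, 883 without the filter on low counts, 656 with DESeq2 and 147 to 610 with single libraries left out. The pathway lists gave 9 called genes, 17 without the filter, 16 with DESeq2 and 3 to 16 with single libraries left out (16 without KO replicate 2, 3 higher and 13 lower). The log2 difference in the RANKL to osteoprotegerin ratio over summed counts was -1.99, and -3.03 to -1.43 with single libraries left out, the ends being without KO replicates 1 and 2. The unlogged ratio per library, chosen after seeing the data, differed by -16.6 per 1000. The causes of these changes were not tested.

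Libraries of the same replicate number did not deviate together (r = 0.137, -0.105 and -0.192 for numbers 1, 2 and 3), and the numbers were not taken as pairs. KO replicates 1 and 3 gave much the same values (0.137 and 0.128 against WT replicate 1), so this check could hardly show pairs. With the replicate number as a block, 331 genes were called, Tnfrsf11b and Csf1r among them. At these depths 3 counts correspond to 0.161 to 0.186 CPM. Il6 (3 to 25 counts) and Tnfsf11 in KO replicate 2 (0 counts) reached down to that level. Tnfrsf11a (16 to 83 counts) and Tnfsf11 in the other libraries (11 to 31) lay above it, though their counts were low.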

Other observations

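Some further values concern the same signals and were chosen after they were seen. Wnt16, a Wnt that osteoblasts secrete and that restrains osteoclast formation in mice, had 9 to 15 counts in the WT libraries and 0 to 1 in the KO libraries. It was too low for the test, and without the filter on low counts it was called lower (adjusted p = 0.0339). Pth1r, the parathyroid hormone receptor, stood at 234 to 306 counts per WT library against 399 to 438 per KO library and did not pass (0.68 ± 0.16, adjusted p = 0.0537). Il6ra, the interleukin-6 receptor, showed 193 to 223 counts per WT library against 52 to 154 per KO library (-1.04 ± 0.30, adjusted p = 0.122). Macrophages express Il6ra too, and their part in this value was not tested.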
